A study of Mus musculus with 9 samples.

Results

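Osteopontin, the secreted phosphoprotein encoded by Spp1, and its receptor CD44, encoded by Cd44, are the 2 genes described here, of 55335 gene identifiers counted in the series and 13611 with enough counts to be tested. They were taken by symbol, and they were chosen by their measured levels and fold changes in these same libraries. Those values are therefore given as a description, with errors and without a test. RNA was sequenced from a murine mammary carcinoma line, D2A1-d, carrying shMed1 #2 or shMed1 #4, which are hairpins against Med1 and whose genotype is labelled Med1 Knockdown, or a non-targeting hairpin, NTC, labelled WT. Each group held 3 samples called biological replicates by the labels, and all were grown in the same serum-containing medium with no further treatment. How the replicates were raised, from 1 transduced pool or several, is not stated, so p-values for other genes weigh a difference against a spread that may be technical. In RNA from whole cultures, fewer expressing cells and less RNA per cell cannot be told apart. Med1 encodes the Mediator subunit through which nuclear receptors contact the transcription machinery.

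Osteopontin is laid down in bone matrix and released by macrophages and many carcinoma cells. It carries an RGD tripeptide that integrins of the alpha v and beta 1 classes bind, beside a second integrin site that thrombin uncovers. CD44 is a transmembrane adhesion receptor whose main ligand is hyaluronan, a long sugar polymer of the matrix. Osteopontin is a further CD44 ligand, mainly of forms that carry variable exons. In mammary tumours both are known for their part in adhesion, survival and spread to bone and lung.

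Spp1 (ENSMUSG00000029304.14) is a protein-coding gene on the plus strand of chromosome 5, from 104435118 to 104441050 on GRCm38. Its 5933 bases hold 1648 bases of merged exons and 7 annotated transcripts. Cd44 (ENSMUSG00000005087.17) lies on the minus strand of chromosome 2, from 102811141 to 102901665, and spans 90525 bases with 6776 bases of merged exons and 9 annotated transcripts. The files count reads per gene, so the standard and variable forms of CD44 were not separated. A predicted transcript on the same strand, Gm42793, shares 309 exon bases with Spp1. It held 4 counts in all with shMed1 #2, 6 with shMed1 #4 and 18 in NTC. How reads in the shared stretch were assigned is not stated in the labels.

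The start regions of both genes are shown because Mediator acts at promoters. Each window holds 250 bases before and 50 bases from the RefSeq start on GRCm38.p6, on the gene's own strand, at chr5:104434861-104435160 for Spp1 and chr2:102901616-102901915 for Cd44. Capitals mark matches, on either strand, to any of the 8 motifs searched.
Spp1: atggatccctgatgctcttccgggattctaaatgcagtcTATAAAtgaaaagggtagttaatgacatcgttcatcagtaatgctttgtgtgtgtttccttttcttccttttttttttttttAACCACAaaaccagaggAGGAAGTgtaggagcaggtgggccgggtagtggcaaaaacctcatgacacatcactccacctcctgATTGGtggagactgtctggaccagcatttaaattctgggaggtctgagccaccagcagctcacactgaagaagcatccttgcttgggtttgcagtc
Cd44: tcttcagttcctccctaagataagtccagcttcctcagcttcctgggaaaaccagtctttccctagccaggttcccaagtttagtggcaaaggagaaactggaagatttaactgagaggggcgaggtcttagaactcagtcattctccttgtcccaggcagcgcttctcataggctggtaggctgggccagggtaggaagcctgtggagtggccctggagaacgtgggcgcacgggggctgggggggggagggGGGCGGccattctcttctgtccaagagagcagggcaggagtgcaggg

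The Spp1 window has the RUNX letters AACCACA starting at position -129 from the start and the ETS letters AGGAAGT at -112. Of 32851 start regions of this length, 5.27% hold the RUNX pattern and 9.35% the ETS pattern. The Spp1 window also has TATAAA at -211 and ATTGG, the reverse complement of CCAAT, at -46, patterns held by 13.6% and 37.4% of start regions. The Cd44 window has the GC box GGGCGG at position 3, which 35.7% hold. The letters TGANTCA for AP-1, AGGTCA for nuclear receptors and the NF-kB pattern were in neither window. The patterns do not overlap one another in these windows. Base composition also differs, with 45.3% G or C in the Spp1 window and 58.0% in that of Cd44. A match is a string of letters only, and binding was not measured.

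Med1 mRNA was low with both hairpins to nearly the same extent. It averaged 24.0 ± 1.67 CPM with shMed1 #2, 25.7 ± 0.808 CPM with shMed1 #4 and 84.3 ± 4.02 CPM in NTC (SD, n = 3 each), where CPM is the count relative to library size after scaling by the trimmed mean of M values. Library totals ran from 8123918 to 8879982 counts. Of 5 epithelial markers, Epcam had 0 counts in every library, Krt19 and Cdh1 averaged under 1 CPM in every group, and summed levels were 19.0 to 22.1 CPM with shMed1 #2, 41.3 to 51.7 CPM with shMed1 #4 and 56.5 to 58.2 CPM in NTC. The 4 mesenchymal markers, with Vim and Fn1 the most abundant, summed to 4634 to 4849 CPM, 4817 to 5035 CPM and 4043 to 4221 CPM in the same order. The 4 did not move together. In the edgeR test described below, 2 were called higher and 1 lower with each hairpin, but only 1 was higher with both. Of all tested genes, 21.8% were called higher and 21.9% lower with shMed1 #2, and 14.0% and 14.1% with shMed1 #4. Macrophages make much osteopontin and CD44. Of 8 macrophage and leukocyte markers, Adgre1 and Itgam had 0 counts in every library, and Ptprc, Aif1 and Lyz2 averaged under 1 CPM in every group. The 8 summed to 57.2 to 61.0 CPM with shMed1 #2, 66.3 to 73.8 CPM with shMed1 #4 and 74.8 to 88.3 CPM in NTC, most of it from Cd14 and Csf1r, and the part of such cells in the results was not tested. T and B cell markers summed to at most 0.121 CPM in any library, endothelial markers to at most 1.04 CPM and osteoblast markers to at most 17.3 CPM, nearly all from Phex.

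Osteopontin mRNA was much lower with both Med1 hairpins, and more so with shMed1 #2. Spp1 measured 147, 135 and 143 CPM in replicates 1, 2 and 3 of shMed1 #2. The shMed1 #4 libraries had 416, 416 and 414 CPM, and the NTC libraries 854, 826 and 1016 CPM. The 3 groups did not overlap, and the order was the same in every pairing of libraries: lowest with shMed1 #2, intermediate with shMed1 #4, highest in NTC. The group means were 142 ± 6.39, 415 ± 1.18 and 899 ± 103 CPM (SD, n = 3 each). In shMed1 #2 cells that is 15.8% of the NTC mean, and in shMed1 #4 cells 46.2%.

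The log2 fold change of Spp1 was -2.66 with shMed1 #2 (SE 0.0605, 95% interval from -2.79 to -2.54). With shMed1 #4 it was -1.11 (SE 0.0551, interval from -1.23 to -1.0). The direct contrast put shMed1 #4 above shMed1 #2 by 1.55 (SE 0.061, interval from 1.42 to 1.67), or 2.93-fold. The log2 change with shMed1 #4 was thus 41.9% of that with shMed1 #2, whereas for Med1 itself the share was 94.5%. Both comparisons with NTC use the same 3 control libraries. SEs here and below were derived from the fit's F statistic, with a spread shared by the groups and moderated over genes. They do not fully carry the wider NTC spread of Spp1 given below, so its intervals may be too narrow. Over the alternative fits described at the end, the SE ran from 0.045 to 0.0857 with shMed1 #2 and from 0.041 to 0.0794 with shMed1 #4.

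CD44 mRNA was higher with both hairpins, and more so with shMed1 #2. The shMed1 #2 libraries held 522, 517 and 496 CPM of Cd44, the shMed1 #4 libraries 404, 426 and 391 CPM and the NTC libraries 288, 281 and 277 CPM. Again the 3 groups did not overlap, and the order was the reverse of that of Spp1. The means were 512 ± 14.2, 407 ± 17.6 and 282 ± 5.87 CPM (SD, n = 3 each). Cd44 was higher by 0.86 on the log2 scale with shMed1 #2 (SE 0.042, 95% interval from 0.78 to 0.94), which is 1.81-fold, and by 0.53 with shMed1 #4 (SE 0.0423, interval from 0.45 to 0.61), which is 1.44-fold. Between the hairpins Cd44 differed by -0.33 (shMed1 #4 minus shMed1 #2, SE 0.041, interval from -0.41 to -0.25). The log2 change with shMed1 #4 was 61.7% of that with shMed1 #2.

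**Figure D1:**
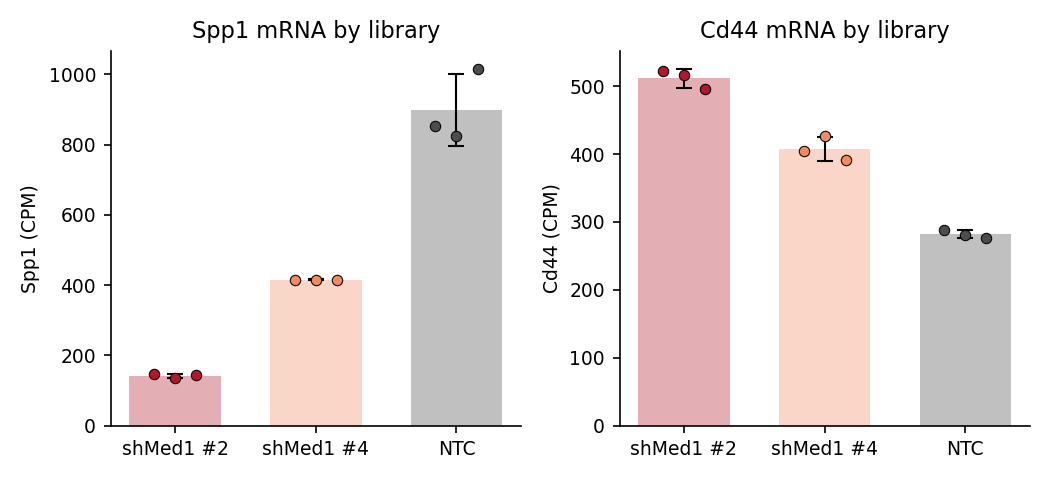
Spp1 and Cd44 levels in CPM by group. Points are the 3 libraries of a group, bars their mean and whiskers 1 SD. Spp1 is lowest with shMed1 #2 and highest in NTC, Cd44 is highest with shMed1 #2 and lowest in NTC, and no groups overlap.

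Replicates of Spp1 were widest apart in NTC. The coefficient of variation of Spp1 was 4.51% with shMed1 #2, 0.285% with shMed1 #4 and 11.4% in NTC, where counting error alone gives 2.85%, 1.68% and 1.15%. The high NTC value came from replicate 3, and the highest NTC library was 1.23 times the lowest. Among 227 genes within 2-fold of the NTC level of Spp1, its SD of log2 CPM in NTC ranked 2 from the top. Without NTC replicate 3, the log2 fold change of Spp1 was -2.57 with shMed1 #2 and -1.02 with shMed1 #4. For Cd44 the coefficients were 2.77%, 4.31% and 2.08%, and counting error gives 1.5%, 1.7% and 2.06%.

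Spp1 was among the most abundant transcripts of the control cells. By CPM it ranked 1631 of 13611 tested genes with shMed1 #2, 310 with shMed1 #4 and 86 in NTC. Per kilobase of exon it ranked 531, 125 and 43 of 13603 genes with a length. Cd44 ranked 244, 327 and 570 by CPM, and 629, 796 and 1254 per kilobase. The merged exon length of Cd44 includes all variable exons, so its level per kilobase is understated where cells make the short form.

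By difference in CPM, Spp1 ranked 2 from the lowest of all tested genes with shMed1 #2, at -757 CPM, and 3 with shMed1 #4, at -484 CPM. By log2 fold change it ranked 65 from the lowest of 13611 genes with shMed1 #2 and 188 with shMed1 #4. Among the 8530 genes averaging 4 log2 CPM or more it ranked 3 and 18. Between the hairpins it ranked 89 from the highest of all tested genes and 6 among the abundant ones. Cd44 ranked 169 from the highest by log2 fold change with shMed1 #2 and 410 with shMed1 #4, or 59 and 97 among the abundant genes. Its rank between the hairpins was 1025 from the lowest of all tested genes and 377 among the abundant ones.

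Many genes changed in these cells, which sets the background for both. In edgeR's quasi-likelihood test with Benjamini-Hochberg adjustment (threshold 0.05), 43.7% of tested genes were called with shMed1 #2, 28.2% with shMed1 #4 and 26.0% between the hairpins. Called lower were 21.9%, 14.1% and 13.1% of genes, and called higher 21.8%, 14.0% and 12.9%. Calls of at least 2-fold were rarer, with 3.75%, 1.70% and 0.478% lower and 0.749%, 0.382% and 1.49% higher in the same 3 contrasts. The ranges of the groups did not overlap, in the lower direction, for 25.8% of genes with shMed1 #2, 19.6% with shMed1 #4 and 18.6% between the hairpins, and in the higher direction for 25.7%, 19.3% and 18.9%. The graded pattern of Spp1, lower with both hairpins and lower with shMed1 #2 than with shMed1 #4, was called for 431 genes, or 3.17%. That of Cd44, higher with both and higher with shMed1 #2, was called for 414 genes, or 3.04%. Both genes were chosen with these contrasts known, so nothing is read from their place in them.

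**Figure D2:**
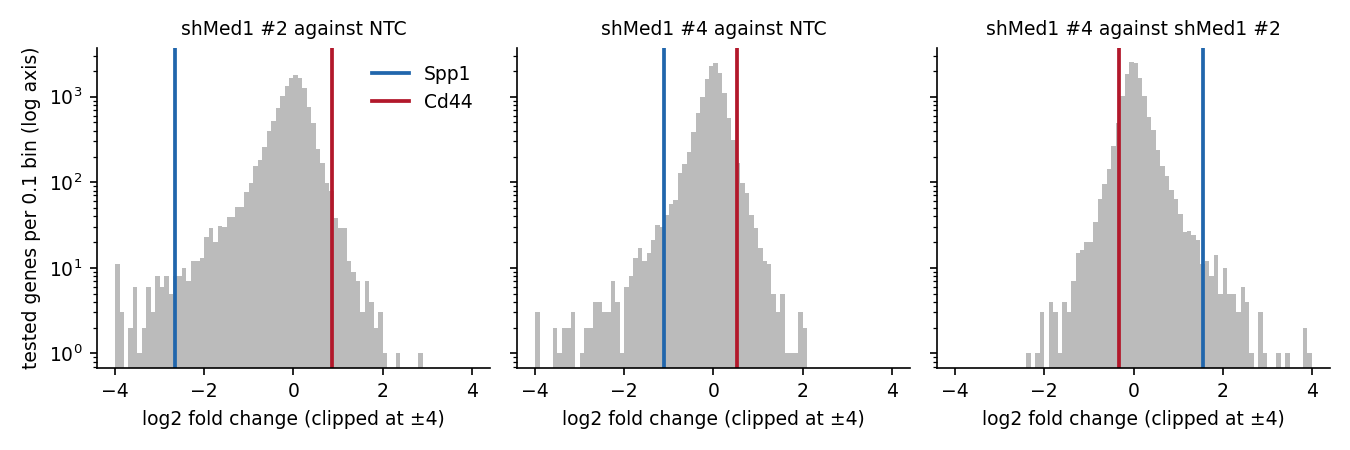
Histograms of log2 fold changes of all 13611 tested genes in 3 contrasts, with the number of genes on a log axis and values past 4 in size gathered at the ends. Vertical lines mark Spp1 at -2.66, -1.11 and 1.55 and Cd44 at 0.86, 0.53 and -0.33.

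The balance of ligand and receptor transcripts differed between the groups. Per kilobase of exon, the ratio of Spp1 to Cd44 was 1.14 ± 0.0602 with shMed1 #2, with libraries from 1.07 to 1.19. It was 4.20 ± 0.17 with shMed1 #4, from 4.012 to 4.35, and 13.1 ± 1.72 in NTC, from 12.1 to 15.1 (SD, n = 3 each). The ranges do not overlap, and the ratio was highest in all 3 NTC libraries. Both genes were chosen by these values and ran in opposite orders, so this separation follows from the levels above and adds no evidence. The size of the ratio also depends on the exon length used for Cd44.

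The gene lists used from here on were chosen with earlier results of these data known. Their counts of calls and p-values describe these libraries and are no independent test of a list. Of the 7 integrin chains that form RGD-binding osteopontin receptors, 5 could be tested. With each hairpin 3 of 5 were called higher and 1 lower. Of all tested genes, 21.8% were called higher and 21.9% lower with shMed1 #2, and 14.0% and 14.1% with shMed1 #4. The median log2 fold change of the 5 was 0.52 with shMed1 #2 and 0.40 with shMed1 #4, against 0.00 and 0.00 over all tested genes. Itgb1, the beta 1 chain shared by many matrix receptors, had 1497, 1512 and 1544 CPM in the shMed1 #2 libraries, 1366, 1371 and 1359 CPM in those of shMed1 #4, and 868, 865 and 834 CPM in NTC. The groups did not overlap, and Itgb1 rose by 0.83 (SE 0.0377, adjusted p = 5.37e-33) and 0.67 (SE 0.0377, adjusted p = 7.67e-27). Itga5, the alpha 5 chain of the fibronectin receptor, averaged 309 ± 3.79, 226 ± 2.11 and 171 ± 8.21 CPM in the same order of groups (SD, n = 3 each). It rose by 0.85 (adjusted p = 1.73e-29) and 0.40 (adjusted p = 1.11e-11). Itgav, the alpha v chain common to most RGD receptors, averaged 329.6 ± 4.50 CPM with shMed1 #2, 298 ± 3.2 CPM with shMed1 #4 and 230.02 ± 11.2 CPM in NTC (SD, n = 3 each), and rose by 0.52 (adjusted p = 5.39e-18) and 0.37 (adjusted p = 3.03e-11).

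The beta 5 partner of alpha v behaved otherwise. Itgb5 had 221, 208 and 217 CPM in the shMed1 #2 libraries, 265, 259 and 271 CPM in those of shMed1 #4 and 294, 312 and 305 CPM in NTC. The groups did not overlap, and it fell by 0.50 with shMed1 #2 (SE 0.0434, adjusted p = 6.95e-17) and by 0.20 with shMed1 #4 (SE 0.0428, adjusted p = 0.000162), with shMed1 #4 above shMed1 #2 by 0.30 (adjusted p = 4.67e-08). Itgb3, the beta 3 chain of the osteoclast vitronectin receptor, was scarce at 2.50, 4.06 and 3.05 CPM on average in shMed1 #2, shMed1 #4 and NTC, and neither difference from NTC passed the test (adjusted p = 0.415 and 0.225). Itgb6 and Itga8 were too low to test, with 10, 4 and 0 counts in all for Itgb6 and 1, 9 and 28 for Itga8 in the same order of groups. Of the 3 chains of receptors for the site that thrombin uncovers, Itga4 had 0, 1 and 0 counts and Itga9 16, 23 and 18. Only Itgb7 could be tested, and it fell with shMed1 #4 by 0.65 (SE 0.11, adjusted p = 1.26e-06) while the difference with shMed1 #2 was -0.17 (adjusted p = 0.167).

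Ordered by level per kilobase of exon, the ligand and its receptors changed places. With shMed1 #2 the order was Itgb1 at 372, Spp1 at 86.1, Cd44 at 75.5, Itga5 at 62.7, Itgb5 at 60.6 and Itgav at 30.7 CPM per kilobase. With shMed1 #4 it was Itgb1 at 334, Spp1 at 252, Itgb5 at 74.5, Cd44 at 60.1, Itga5 at 45.7 and Itgav at 27.7. In NTC it was Spp1 at 545, Itgb1 at 209.7, Itgb5 at 85.4, Cd44 at 41.6, Itga5 at 34.7 and Itgav at 21.4. The ranges of Itga5 and Itgb5 overlapped with shMed1 #2. Other neighbours in these orders had ranges that did not overlap. Ranges of replicates carry no error of exon length, and the length of Cd44 includes all variable exons. Close places, such as those of Spp1 and Cd44 with shMed1 #2, are therefore not settled.

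**Figure D3:**
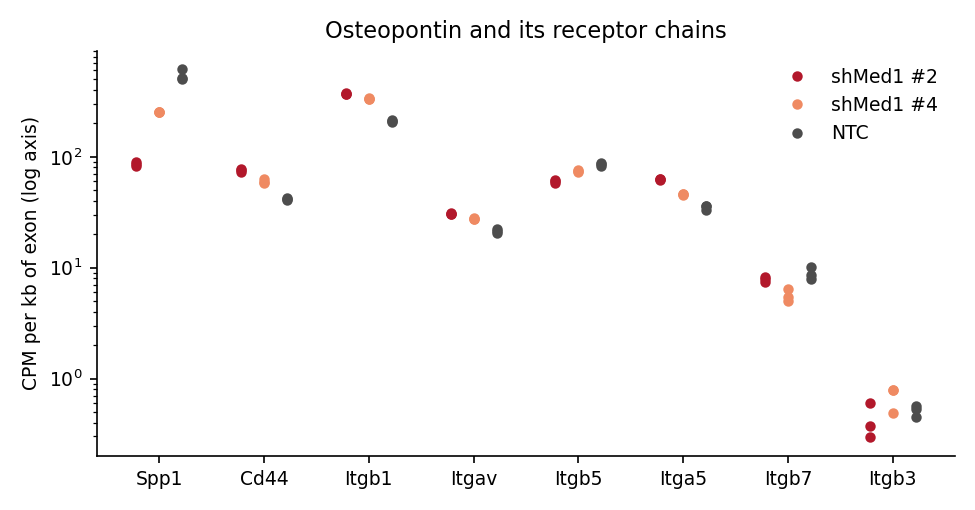
Levels of Spp1, Cd44 and the 6 tested integrin chains in CPM per kilobase of exon, on a log axis, with each library as a point. Spp1 lies above all receptor chains in NTC and below Itgb1 with both hairpins, and Itgb3 lies below 1 in every library.

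Genes whose products modify or cut osteopontin were mostly lower. Of 12 listed, 7 were tested. With shMed1 #2, 6 were lower and 0 higher, where 21.9% of all genes were called lower, and with shMed1 #4, 6 were lower and 1 higher, where 14.1% were called lower. The median log2 fold change was -0.83 and -0.68. Mmp3, the matrix metalloproteinase stromelysin 1, had 1.61, 1.74 and 2.54 CPM in the shMed1 #2 libraries, 6.28, 5.54 and 4.87 CPM in those of shMed1 #4 and 15.03, 13.7 and 15.7 CPM in NTC. The groups did not overlap, and it fell by 2.91 (SE 0.192, adjusted p = 3.07e-23) and 1.41 (SE 0.155, adjusted p = 3.36e-12). The gelatinase gene Mmp9 averaged 9.31 ± 0.422, 13.6 ± 2.84 and 26.0 ± 2.85 CPM (SD, n = 3 each) and fell by 1.48 (adjusted p = 1.32e-17) and 0.94 (adjusted p = 2.94e-10).

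Fam20c, the secretory pathway kinase that phosphorylates osteopontin, averaged 16.5 ± 1.01 CPM with shMed1 #2, 20.2 ± 1.14 CPM with shMed1 #4 and 29.4 ± 3.25 CPM in NTC (SD, n = 3 each). It fell by 0.83 (adjusted p = 8.55e-11) and 0.54 (adjusted p = 7.79e-06). Tgm2, the transglutaminase that crosslinks osteopontin, was the most abundant of the list at 163, 201 and 252 CPM on average, and fell by 0.62 (adjusted p = 2.45e-20) and 0.33 (adjusted p = 1.16e-08). Mmp2, a further gelatinase gene, had 2 counts in all with shMed1 #2, 36 with shMed1 #4 and 77 in NTC, and its call with shMed1 #4 (adjusted p = 0.00503) was lost without shMed1 #4 replicate 3 (adjusted p = 0.0624). Phex, a peptidase gene, fell by 0.37 (adjusted p = 0.0109) and 0.68 (adjusted p = 2.03e-05), the call with shMed1 #2 being lost without shMed1 #2 replicate 1 (0.056). Plau, the urokinase gene, rose with shMed1 #4 by 0.47 (adjusted p = 0.00346) and differed by -0.33 with shMed1 #2 (adjusted p = 0.0565, or 0.0272 with library size alone as scaling). Thrombin mRNA (F2) and Mmp7 had 0 counts in every library.

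CD44's main ligand is made by hyaluronan synthases, whose genes showed no common direction. Of 9 genes of hyaluronan synthesis and turnover, 8 were tested, with 2 higher and 2 lower with shMed1 #2 and 1 of each with shMed1 #4 (median 0.10 and 0.06). These counts are near the share of all genes, 21.8% higher and 21.9% lower with shMed1 #2 and 14.0% and 14.1% with shMed1 #4. Has2 had 6.67, 5.92 and 6.57 CPM in the shMed1 #2 libraries, 14.2, 11.1 and 11.4 CPM in those of shMed1 #4 and 14.3, 11.4 and 12.6 CPM in NTC. Only the shMed1 #2 libraries stood apart: Has2 fell by 1.0 with shMed1 #2 (SE 0.152, adjusted p = 4.4e-08), and with shMed1 #4 the difference was -0.07 (adjusted p = 0.764). Between the hairpins it was higher with shMed1 #4 by 0.93 (adjusted p = 8.16e-07). Has3, the synthase with the higher level here, averaged 105 ± 5.76, 97.2 ± 5.00 and 87.4 ± 2.96 CPM (SD, n = 3 each) and rose by 0.27 with shMed1 #2 (adjusted p = 3.32e-05).

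The Has3 difference with shMed1 #4 was 0.15 (adjusted p = 0.0305), a call lost without replicate 2 (0.0531) or 3 (0.154) of NTC or replicate 1 (0.117) or 3 (0.107) of shMed1 #4. Cemip, a hyaluronan-degrading protein gene, had log2 fold changes of -1.0 and -0.93 (adjusted p = 0.00127 and 0.00462), but neither call held without NTC replicate 3 (adjusted p = 0.0614 and 0.132). Cemip2, a cell surface hyaluronidase gene, rose by 0.26 with shMed1 #2 (adjusted p = 0.00122). Ugdh, which supplies the sugar precursor, was the most abundant of the list at 156, 164 and 161 CPM on average, with no difference called (adjusted p = 0.506 and 0.673).

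Of 13 other hyaluronan receptors and binding proteins, 9 were under 1 CPM in every group, including Lyve1 and Stab2, and 4 were tested. Hmmr, the hyaluronan-mediated motility receptor, rose by 0.23 (adjusted p = 6.2e-05) and 0.19 (adjusted p = 0.00201). Vcan, the hyaluronan-binding proteoglycan versican, averaged 4.23 ± 0.159, 3.70 ± 1.25 and 11.2 ± 0.547 CPM (SD, n = 3 each) and fell by 1.40 (adjusted p = 2.11e-10) and 1.60 (adjusted p = 1.63e-11). Tnfaip6 and Stab1 were called with shMed1 #4, at 1.01 and -0.29 (adjusted p = 0.0115 and 0.00934). Tnfaip6 lost its call without NTC replicate 2 (0.0658) or shMed1 #4 replicate 1 (0.0751), and Stab1 without shMed1 #4 replicate 1 (0.118).

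Enzymes that release the CD44 ectodomain and cut the remaining stub showed no common direction. All 9 were tested, with 4 higher and 1 lower with shMed1 #2 and 2 of each direction with shMed1 #4 (median 0.07 and -0.06). Among all tested genes the shares were 21.8% higher and 21.9% lower with shMed1 #2 and 14.0% and 14.1% with shMed1 #4. The membrane metalloproteinase gene Mmp14 had 239, 229.5 and 227 CPM in the shMed1 #2 libraries, 233, 215 and 220.1 CPM in those of shMed1 #4 and 180.4, 177 and 179 CPM in NTC. Its hairpin libraries overlapped each other and all lay above NTC, and it rose by 0.37 (SE 0.0448, adjusted p = 3.45e-11) and 0.31 (SE 0.045, adjusted p = 2.03e-08). Adam10, a main CD44 sheddase, rose by 0.18 with shMed1 #2 (adjusted p = 0.000982), while its difference of 0.16 with shMed1 #4 (adjusted p = 0.00751) was not called without shMed1 #4 replicate 2 (0.0745). The other sheddase gene, Adam17, fell by 0.21 with shMed1 #4 (adjusted p = 0.00244) and differed by -0.02 with shMed1 #2 (adjusted p = 0.752). Of the gamma-secretase subunits, Psenen fell by 0.37 with shMed1 #2 (adjusted p = 0.00029) and Ncstn rose by 0.21 (adjusted p = 0.000353). With shMed1 #4 Ncstn differed by 0.11 (adjusted p = 0.121, or 0.0393 without shMed1 #4 replicate 2). Aph1b was higher by 0.34 with shMed1 #2 (adjusted p = 0.0135), a call lost without NTC replicate 2 (0.146) or shMed1 #2 replicate 3 (0.137).

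Of 8 linkers of the CD44 tail to the cytoskeleton, 7 were tested. Of these, 4 were higher and 1 lower with shMed1 #2, and 3 higher and 1 lower with shMed1 #4 (median 0.16 and 0.13), where 21.8% and 21.9% of all genes were higher and lower with shMed1 #2, and 14.0% and 14.1% with shMed1 #4. Msn, which encodes moesin, was the most abundant at 1579 ± 26.9 CPM with shMed1 #2, 1479 ± 37.6 CPM with shMed1 #4 and 1217 ± 69.3 CPM in NTC (SD, n = 3 each), and rose by 0.38 (adjusted p = 1.07e-13) and 0.28 (adjusted p = 7.38e-09). Nf2, encoding merlin, which competes with these linkers for CD44, fell by 0.21 with shMed1 #2 (adjusted p = 7.08e-05). With shMed1 #4 Nf2 differed by -0.13 (adjusted p = 0.0217), lost without NTC replicate 1 (0.0709), NTC replicate 2 (0.0503) or shMed1 #4 replicate 1 (0.118). The ankyrin gene Ank1 rose by 0.89 with shMed1 #2 (adjusted p = 0.000101). The scaffold gene Iqgap1 differed by 0.12 with each hairpin (adjusted p = 0.0147 and 0.0307). Those calls were lost without NTC replicate 3 (0.149 and 0.247), that with shMed1 #2 also without shMed1 #2 replicate 3 (0.118), and that with shMed1 #4 without shMed1 #4 replicate 2 (0.323).

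**Figure D4:**
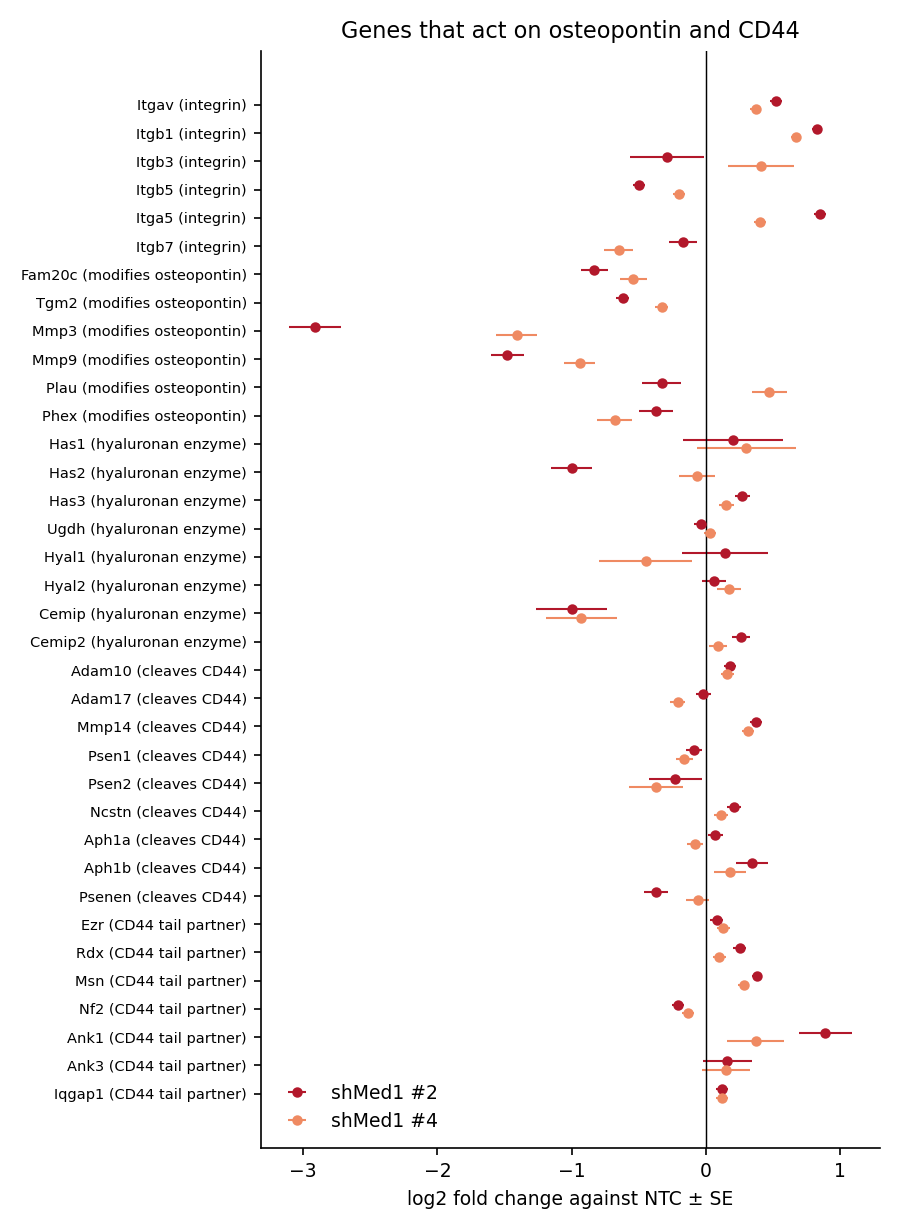
Log2 fold changes against NTC, with SE, of the tested integrin chains, osteopontin-modifying enzymes, hyaluronan enzymes, CD44-cleaving proteases and CD44 tail partners, for shMed1 #2 and shMed1 #4. Mmp2 is left out because shMed1 #2 had 2 counts. Mmp3 lies farthest left at -2.91 and -1.41, and Itgb1 and Itga5 lie to the right of 0.

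Membrane partners of CD44 showed no common direction. Of 5 tested, 1 was higher and 2 lower with shMed1 #2, and 0 higher and 1 lower with shMed1 #4. The shares of all genes called higher and lower were 21.8% and 21.9% with shMed1 #2 and 14.0% and 14.1% with shMed1 #4. Slc7a11, the cystine transporter that CD44 variant forms stabilise, averaged 61.5 ± 4.50, 38.3 ± 1.92 and 73.8 ± 2.84 CPM (SD, n = 3 each) and fell by 0.26 (adjusted p = 0.000392) and 0.95 (adjusted p = 2.55e-20), so that the larger change was with shMed1 #4 (between the hairpins -0.68, adjusted p = 4.73e-13). Bsg, encoding basigin, rose by 0.16 with shMed1 #2 (adjusted p = 0.000946). The receptor kinase gene Met differed by -0.11 with shMed1 #2 (adjusted p = 0.0352), lost without replicate 1 (0.0902) or 3 (0.118) of NTC or replicate 1 (0.0895) or 2 (0.233) of shMed1 #2. Egfr and Cd74, a CD44 co-receptor, were under 1 CPM in every group.

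Among 8 regulators of CD44 variable exons, Esrp1, the epithelial splicing factor that promotes their inclusion, had 0, 1 and 0 counts in shMed1 #2, shMed1 #4 and NTC. The other 7 were tested, with 4 higher and 1 lower with shMed1 #2 and 3 higher and 1 lower with shMed1 #4, beside 21.8% and 21.9%, and 14.0% and 14.1%, of all genes. Several of these calls did not hold under alternatives, as given here. Smarca2, the chromatin remodelling ATPase BRM, had 1.72, 1.39 and 3.23 CPM in the shMed1 #2 libraries, 4.31, 3.61 and 4.29 CPM in those of shMed1 #4 and 7.39, 8.44 and 7.87 CPM in NTC, and fell by 1.89 (adjusted p = 2.72e-11) and 0.95 (adjusted p = 7.74e-05). The splicing genes Tra2b and Hnrnpm rose by 0.19 and 0.16 with shMed1 #2 (adjusted p = 0.000182 and 0.000984). With shMed1 #4 each differed by 0.12. Tra2b (adjusted p = 0.0407) lost that call without NTC replicate 1 (0.0582), 2 (0.172) or 3 (0.0622), or shMed1 #4 replicate 2 (0.113) or 3 (0.0701). It was lost in 11 of 18 alternatives, among them library size alone (0.122), upper quartile scaling (0.0841), either other filter (0.0824 and 0.0502), DESeq2 (0.0659) and a fit of the compared groups (0.0596). Hnrnpm (adjusted p = 0.0213) lost it without NTC replicate 1 (0.0652), NTC replicate 2 (0.0876) or shMed1 #4 replicate 2 (0.111). Srrm1, also called higher with shMed1 #4, differed by 0.12 (adjusted p = 0.0316), and its range overlapped that of NTC. The Srrm1 call was not examined under the alternatives. Hnrnpa1, the most abundant, differed by 0.12 with shMed1 #2 (adjusted p = 0.00735, or 0.0541 without NTC replicate 3). With shMed1 #4 it differed by -0.08 (adjusted p = 0.158, or 0.0365 without shMed1 #4 replicate 3). Esrp2 differed by 0.42 with shMed1 #2 (adjusted p = 0.0494), a call lost without any 1 of NTC replicates 1 and 3 (0.179 and 0.146) and shMed1 #2 replicates 1, 2 and 3 (0.111, 0.077 and 0.0741). It was also lost in DESeq2 (0.139), with no filter (0.0923), with upper quartile scaling (0.0699) and with library size alone (0.085).

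Transcription factors reported to act on Spp1 or Cd44 showed no common direction. Of 19 listed, 17 were tested, with 4 higher and 6 lower with shMed1 #2 and 3 higher and 4 lower with shMed1 #4 (median 0.01 and 0.04). All tested genes gave 21.8% higher and 21.9% lower with shMed1 #2 and 14.0% and 14.1% with shMed1 #4. Runx2, the osteoblast regulator that binds the RUNX letters, had 75.8, 73.1 and 74.9 CPM in the shMed1 #2 libraries, 78.8, 80.6 and 83.9 CPM in those of shMed1 #4 and 93.1, 97.1 and 91.8 CPM in NTC. The groups did not overlap, and it fell by 0.33 (SE 0.0568, adjusted p = 7.94e-07) and 0.21 (SE 0.0563, adjusted p = 0.00213). Runx1, the other RUNX gene listed, averaged 47.8, 48.2 and 47.4 CPM in the same order of groups. It differed by 0.01 and 0.03, with no difference called (adjusted p = 0.902 and 0.823). Ets1, a factor of the ETS family, averaged 223 ± 7.35, 201 ± 11.9 and 172 ± 4.24 CPM (SD, n = 3 each) and rose by 0.38 (adjusted p = 4.8e-11) and 0.23 (adjusted p = 5.29e-05). Rela, the NF-kB subunit p65, fell by 0.41 (adjusted p = 1.79e-10) and 0.35 (adjusted p = 4.24e-08). The scarce immediate early gene Egr1, with 20, 28 and 56 counts in all in shMed1 #2, shMed1 #4 and NTC, fell by 1.51 with shMed1 #2 (adjusted p = 0.000612). Its call with shMed1 #4 (-1.01, adjusted p = 0.0228) was lost without NTC replicate 1 (0.0784) or 2 (0.0614), or shMed1 #4 replicate 1 (0.0673) or 2 (0.131). Ctnnb1, beta-catenin, was the most abundant, with no difference called (adjusted p = 0.344 and 0.0797).

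Spp1 is a textbook target of the vitamin D receptor, to which MED1 binds. Vdr itself had 9.66, 8.36 and 8.76 CPM in the shMed1 #2 libraries, 12.1, 12.8 and 12.6 CPM in those of shMed1 #4 and 5.58, 4.82 and 6.95 CPM in NTC. It was highest with shMed1 #4 without overlap, and rose by 0.62 (SE 0.166, adjusted p = 0.00128) and 1.11 (SE 0.156, adjusted p = 1.42e-08). Of its retinoid receptor partners, Rxra averaged 56.2, 56.9 and 54.4 CPM with no difference called (adjusted p = 0.612 and 0.529), and Rxrb fell by 0.39 (adjusted p = 5.96e-07) and 0.40 (adjusted p = 8.95e-07). The Wnt co-receptor gene Lrp5 rose by 0.49 with shMed1 #4 (adjusted p = 0.00147) and differed by 0.01 with shMed1 #2 (adjusted p = 0.971). Cyp24a1, Trpv6, Tnfsf11 and Bglap, which are among the receptor's other target genes, were under 1 CPM in every group and could not be tested.

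Across all 12 lists, 74 of 108 genes were tested. With shMed1 #2, 24 were higher and 22 lower, together 62.2% against 43.7% of all genes. With shMed1 #4, 20 were higher and 21 lower, together 55.4% against 28.2%. Because the lists were chosen with earlier results of these data known, nothing is read from these larger shares. Of the 7 tested osteopontin-modifying genes, 6 were higher with shMed1 #4 than with shMed1 #2 and 0 lower, where 12.9% of all genes were called higher. Of those calls, that of Mmp9 was lost without shMed1 #4 replicate 3 (adjusted p = 0.0501), and that of Fam20c without replicate 1 (0.0947) or 3 (0.143) of shMed1 #2 or replicate 1 (0.108) or 3 (0.122) of shMed1 #4. The Fam20c call was also lost in DESeq2 (0.116) and with no filter on low counts (0.0701).

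The coding genes beside Spp1 were mostly silent or not called. Next to Spp1 lie the related bone matrix glycoprotein genes Mepe, Ibsp and Dmp1 on 1 side, of which Ibsp had 0 counts and the others under 1 CPM in every group, as did Dspp, a further member of that family. On the other side, Pkd2, 18.4 kilobases away, averaged 135 CPM with shMed1 #2, 136 CPM with shMed1 #4 and 138 CPM in NTC (log2 fold changes -0.02 and -0.01, adjusted p = 0.718 and 0.878). BC005561 likewise was not called (adjusted p = 0.574 and 0.91). The distant Zfp951 differed by -0.57 with shMed1 #2 (adjusted p = 0.0475). That call was lost without any 1 of NTC replicates 1, 2 and 3 (0.139, 0.0866 and 0.0579) or of shMed1 #2 replicates 1 and 3 (0.129 and 0.237).

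Beside Cd44, Slc1a2, Pamr1 and Ehf were under 1 CPM in every group. Pdhx, a pyruvate dehydrogenase component gene 119.4 kilobases away, rose by 0.54 (adjusted p = 2.83e-08) and 0.41 (adjusted p = 3.65e-05), in contrasts where 21.8% and 14.0% of all genes were called higher. Its neighbour Apip, 172 kilobases from Cd44, was higher by 0.40 (adjusted p = 0.0071) and 0.46 (adjusted p = 0.00347). The Apip calls were lost without NTC replicate 2 (0.0569) or shMed1 #2 replicate 2 (0.0609) for shMed1 #2 and without shMed1 #4 replicate 1 (0.0694) for shMed1 #4. Fjx1 differed by -0.59 with shMed1 #4 (adjusted p = 0.0169), lost without NTC replicate 3 (0.0676) or shMed1 #4 replicate 3 (0.0626). No test of neighbours as a group was made.

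Genes whose pattern was most like that of Spp1 were sought among 8034 named genes averaging 4 log2 CPM or more, over the 9 libraries. The points fall into 3 groups and share the NTC libraries, so the coefficients describe these libraries only. The highest Pearson correlations of log2 CPM were those of the endoplasmic reticulum chaperone gene Calr at 0.998, the adhesion receptor gene Vcam1 at 0.997, the citrate-cleaving enzyme gene Acly at 0.996, Scd2 at 0.994, Pdia4 at 0.994 and Mlec at 0.993. Most of these moved less than Spp1: Calr averaged 2616, 3528 and 4371 CPM with shMed1 #2, shMed1 #4 and NTC, with log2 fold changes of -0.74 and -0.31. Nearest in the size as well as the shape of its change was Vcam1, at 11.1, 30.5 and 65.8 CPM, with log2 fold changes of -2.56 and -1.11. Its distance from Spp1 in log2 units over the libraries was 0.305, and the next nearest, the ferroxidase gene Cp, was at 1.05. After these came Kcnj2, Fads3, Gdpd5 and Ccdc18 at 1.06 to 1.31.

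For Cd44 the highest correlations were those of Lima1 at 0.997, an actin-bundling protein gene, Itga1 at 0.997, a collagen receptor chain, Vim at 0.996, the intermediate filament vimentin, Anxa3 at 0.995, Fermt2 at 0.995, a kindlin that activates integrins, and Plaur at 0.994, the urokinase receptor. Itga1 averaged 55.2, 39.6 and 23.6 CPM with shMed1 #2, shMed1 #4 and NTC, and Plaur 215, 154 and 93.0 CPM. Nearest in size and shape were Dstn, the actin-depolymerising factor destrin, at a distance of 0.177, Fxyd5 at 0.183, Smim3 at 0.194, Pxdn at 0.201, Rsu1 at 0.210 and Tmem123 at 0.211. Dstn averaged 1424, 1173 and 771 CPM, with log2 fold changes of 0.88 and 0.61.

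**Figure D5:**
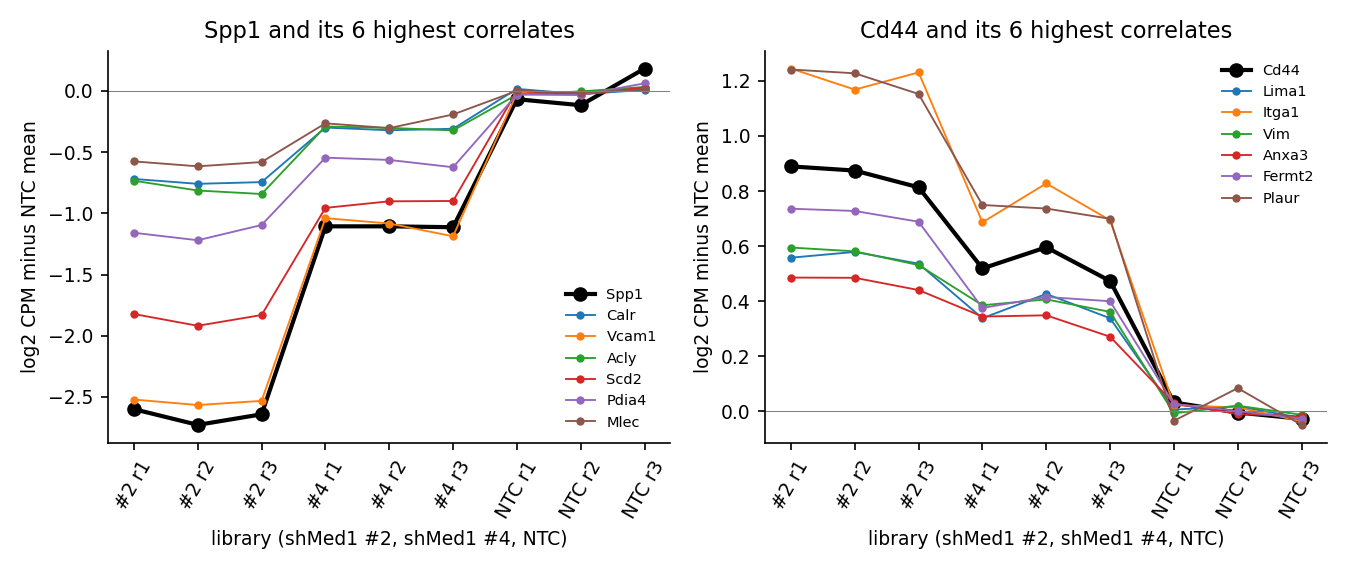
Log2 CPM minus the NTC mean in each of the 9 libraries for Spp1 (left, black) and Cd44 (right, black) and the 6 genes that correlate most with each. Lines only join the points of a gene. Vcam1 runs closest to Spp1, and Itga1 and Plaur lie above Cd44 with both hairpins.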

How the data were processed

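Counts per gene were deposited by the authors as raw whole numbers, 1 file per sample for 9 samples. The aligner STAR, the counter HTSeq and the build GRCm38, also called mm10, are named in the submitters' processing notes. Their versions, the annotation release and the strand mode are not stated there. Of 55335 identifiers, 55154 matched a symbol and length in GENCODE M21. Genes were kept by edgeR's filterByExpr, scaled by TMM (factors 0.982 to 1.02) and fitted with edgeR 4.0.16 in R 4.3.3 (quasi-likelihood, robust, 1 coefficient per group, all 9 samples), with Benjamini-Hochberg adjustment over 13611 genes and calls at an adjusted p under 0.05. No 2 libraries of a group were alike within counting noise (chi-square over its degrees of freedom 1.55 to 2.53). A count of 3 corresponds to 0.338 to 0.369 CPM, and such a floor covers counting error only.

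The 2 genes and the 12 gene lists were chosen with earlier results of these data known. Named genes are the tested integrin chains, up to 4 called members and the most abundant member of each other list, the 3 coding neighbours on each side, and the 6 most like genes by correlation and by distance (log2 CPM, prior count 2). Only coding neighbours were used, a choice made after the annotation was seen. Phex, Plau, Ncstn, Adam17, Runx1, Srrm1 and the untested genes fall outside that rule and were named after their values were seen. Alternatives were 3 other scalings, 2 other filters, DESeq2 1.42.0, a non-robust fit, a fit of just the compared groups, a replicate block and leaving out each library. The scripts were run on simulated counts with the same spread for every gene, which these data do not have, as a check of the code only. Start regions are RefSeq's on GRCm38.p6. Figures used matplotlib 3.10.9.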

Additional observations from a re-analysis of the deposited data

How the results depend on the processing

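In each of 18 alternatives Spp1 stayed lower with both hairpins and Cd44 higher. Spp1 ranged from -2.72 to -2.57 with shMed1 #2, from -1.17 to -1.02 with shMed1 #4 and from 1.51 to 1.58 between the hairpins, and the extremes of all 3 came from leaving out 1 library. Cd44 ranged from 0.81 to 0.88, from 0.50 to 0.56 and from -0.37 to -0.30. The value of 0.81, with library size alone as scaling, was the only one to move by more than the SD between replicates. The number of genes called ranged from 4903 to 6138 with shMed1 #2, from 2815 to 3878 with shMed1 #4 and from 2524 to 3566 between the hairpins, each lowest in DESeq2. List members called higher with shMed1 #4 numbered 13 in DESeq2 against 20, and 14 to 20 with 1 library left out; the cause was not tested. No pairing by replicate number was seen: correlations of same-numbered deviations ran from -0.0589 to 0.0662, and 0 of 9 were over 0.1. Those of differently numbered samples ran from -0.126 to 0.136. Low correlations cannot show how the samples were raised or handled. With the replicate number as a block, 5892, 3786 and 3461 genes were called and Spp1 stood at -2.66 and -1.11. The block ended 1 call named here, that of Esrp2 with shMed1 #2 (adjusted p = 0.0517). The 6 genes most like Spp1 by distance shared 1 name with those found without a minimum level, and those by correlation shared 5. Those most like Cd44 shared all 6 by either measure. Genes with few counts, such as Itgb3, Egr1 and Cemip, have little precision at this depth. Small differences depended on the tool and scaling. DESeq2 did not call Zfp951 (0.131), Aph1b (0.0514) and Met (0.0758) with shMed1 #2, or Fjx1 (0.0709), Mmp2 (0.0545), Has3 (0.089), Tnfaip6 (0.0622), Iqgap1 (0.0788) and Egr1 (0.107) with shMed1 #4. Library size alone ended the calls of Iqgap1 (0.149) and Hnrnpa1 (0.11) with shMed1 #2 and of Has3 (0.0779), Iqgap1 (0.0967) and Hnrnpm (0.0742) with shMed1 #4, and upper quartile scaling those of Iqgap1 (0.0692 and 0.0661) and Has3 (0.057). Without a filter Zfp951 (0.0898), Met (0.0811) and, with shMed1 #4, Nf2 (0.0512) were not called. Stab1 with shMed1 #2 was called with upper quartile scaling (0.0447) or library size alone (0.0286), and Hnrnpa1 with shMed1 #4 with library size alone (0.0476).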
